A study of Mus musculus with 8 samples.

Results

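Regnases, roquins and the other proteins described here bind the 3′ untranslated region (3′UTR) of mRNAs and set how long these mRNAs last or how well they are translated. The group held 10 genes out of the 23143 gene symbols of the deposited count table, taken by symbol, with no value in the rule: the regnase genes Zc3h12a, Zc3h12c and Zc3h12d, the roquin genes Rc3h1 and Rc3h2, the AU-rich element binders Elavl1 (HuR), Hnrnpd (AUF1) and Khsrp (KSRP), and the related genes Tia1 and Tial1 (TIAR). All 10 were tested in each comparison. The members and the lists below were, however, chosen with earlier results of these data known. Their counts beside those of all genes are therefore a description only. The cells were RAW264.7, a mouse macrophage line that is 1 tumour-derived line and not a set of animals. They were exposed to 100 ng/ml lipopolysaccharide (LPS) of E. coli O111:B4 for 15, 30, 45, 60, 75, 90 or 120 min, or were left without LPS (0 min). Each time point was represented by 1 library of ribosomal RNA-depleted RNA, sequenced strand-specifically, so the differences below had no replicate check and the test compared libraries, not conditions. The labels give the RNA fraction as cytoplasmic, while the study's methods describe total RNA.

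Regnase-1, the product of Zc3h12a, is an endonuclease that cuts mRNAs at stem-loops with a loop of a pyrimidine, a purine and any base. Roquin-1 and roquin-2, the products of Rc3h1 and Rc3h2, bind similar stem-loops, called constitutive decay elements, and recruit the deadenylases that shorten the poly(A) tail. AU-rich elements are built from the pentamer AUUUA. HuR usually stabilizes mRNAs that carry such elements, KSRP promotes their decay, AUF1 can do either, and TIA-1 and TIAR hold back their translation. In macrophages all of these proteins act on mRNAs for cytokines and other inflammatory mediators, and regnase-1 is itself a feedback inhibitor whose mRNA LPS induces.

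The 8 libraries held 100250892 to 159077286 counts, so that a gene with 0 counts could still have had up to 0.0299 CPM (counts of a gene scaled to the library total) in the shallowest library. Macrophage markers were present, with 9 of the 9 listed genes found in the table at 10 or more counts in every library and a summed level of 5740 to 6950 CPM. The summed markers of T cells were at 0.671 to 1.27 CPM, those of B cells at no more than 0.119, those of neutrophils at no more than 0.0486, those of epithelial cells at no more than 0.00946 and those of fibroblasts at no more than 0.00763. Cd3g, Pax5, Epcam, Krt18, Cdh1, Col1a1, Col3a1 and Dcn were at 0 counts in every library. Of the 5 T cell markers, however, 1 had 10 or more counts in every library, and the highest count among the 5 was 157. Neither of the 2 neutrophil markers in the table was at 0 throughout, with a highest count of 4. The libraries fell into 2 sets by the share of counts that the ribosomal RNA precursor Rn45s took: 8.18% to 9.11% at 0, 30, 60 and 120 min and 13.0% to 20.5% at 15, 45, 75 and 90 min. The member counts and ratios at 15, 45, 75 and 90 min rest on the latter 4 libraries, where the share was 13.0%, 16.6%, 20.5% and 15.8%, and its part in them was not tested. Counts were divided by median-of-ratios size factors (normalized counts), and a gene was called different between a pair of libraries when the log2 ratio was beyond 0.5 and the unadjusted p of a negative binomial test was under 0.05. All intervals are 95% intervals that cover counting error only.

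Several of the members carry the kinds of element that the group reads in other mRNAs. Sequences are given 5′ to 3′ as DNA from the GENCODE transcript matched to each gene, with positions in GRCm38. The pentamer ATTTA occurred in the 3′UTR of every member. Across 11248 genes with a 3′UTR and on average 10 or more normalized counts, 67.6% held it, at a median of 1.26 per kb, but of the genes with a 3′UTR within 20% of a member's in length, 67.5% did for Zc3h12a and 85.8% to 100% for the other 9. The 30-base stretches with the most copies of it in the 3′UTRs of Elavl1, Rc3h2, Rc3h1 and Tia1, shown because these 3′UTRs held copies that lie close together, read as follows with the pentamers in capitals.
Elavl1, chr8:4285776-4285805, minus strand: tATTTATTTATTTATTTAtttttATTTAtt
Rc3h2, chr2:37373418-37373447, minus strand: gatcttacacATTTATTTAatactcaagtg
Rc3h1, chr1:160969775-160969804, plus strand: ttttttATTTAaataaaaATTTAtatatat
Tia1, chr6:86430469-86430498, plus strand: gatacaatgtATTTATTTAaaagattcatt

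The Elavl1 stretch held 5 pentamers, of which the first 4 overlap each other in a row. In all, the 3′UTR of Elavl1 held 17 pentamers in 4218 bases, more than 97.1% of the 783 genes with a 3′UTR within 20% of that length. Rc3h2 held 15 in 2095 bases, more than 99.7% of 1624 such genes, and its paralog Rc3h1 held 20 in 7181 bases, more than 82.1% of 201 such genes. Zc3h12c held 12 in 3421 bases and Zc3h12a 3 in 856 bases, above 90.5% and 79.5% of genes of like length, while Zc3h12d held 2 in 2327 bases, above 20.1%. Khsrp held 1 pentamer in 1642 bases, fewer than most genes of like length, whose median was 2. Tia1 held 8, Hnrnpd 10 and Tial1 3, above 75.1%, 51.8% and 27.3% of genes of like length. A match is a description of the letters and not a site of binding.

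Stem-loops of the regnase and roquin type were searched as 5 Watson-Crick pairs closing a loop of 3 bases, namely a pyrimidine, a purine and any base. Zc3h12a held 3 of these in its 3′UTR, where 31.7% of 1416 genes of like length held at least 1. Rc3h1 held 5, Rc3h2 4 and Zc3h12c 3, at lengths where 89.6%, 55.4% and 72% of genes held at least 1. Overlapping matches were counted separately, such as those at 3′UTR positions 2002 and 2005 of Rc3h1 and 62 and 69 of Rc3h2. The share of genes of like length with as many matches was not computed. Khsrp held 0, where 45.9% of like genes held 1 or more, and the others held 1 or 2, where 59.6% to 86% did. The 2 roquin genes shared 2 identical stem-loops of 13 bases. One, made of A and T only, was found in the 3′UTR of 54 genes, and the other, with the loop TGT, in 5 genes, the other three being Adamts6, Mppe1 and Pxdn. The stem-loops of Zc3h12a that contain G-C pairs, and the rarer one of those common to the roquin genes, are shown because they have the form that these same proteins read, with stem and loop in capitals.
Zc3h12a, chr4:125119066-125119086, minus strand, loop CAT: gttgATACACATTGTATctct
Zc3h12a, chr4:125118884-125118904, minus strand, loop CAT: gttaGGCACCATGTGCCtgct
Rc3h1, chr1:160971657-160971677, plus strand, loop TGT: aataACTTCTGTGAAGTtgcc
Rc3h2, chr2:37373806-37373826, minus strand, loop TGT: attaACTTCTGTGAAGTtgtt

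In bulk RNA, more cells with an mRNA and more of it per cell cannot be told apart. To see when the regnase and roquin mRNAs responded, each LPS library was first compared with the library at 0 min. No member was called higher at 15 min (0.295% of all genes tested were) or lower (0.164%). At 30 min, 2 of the 10 members were called higher, against 1.14% of all genes, and 0 lower (0.202%). At 45 min 4 were higher (3.8%) and 0 lower (1.5%), and at 60 min 3 were higher (3.43%) and 0 lower (2.36%). At 75 min 5 were higher (4.77%) and 0 lower (3.48%), and at 90 min 5 were higher (5.79%) and 0 lower (4.42%). At 120 min 4 were higher (7.63%) and 0 lower (6.7%). Over the course, 5 members were called higher in at least 1 library, namely Zc3h12a, Zc3h12c, Rc3h1, Rc3h2 and Hnrnpd, and 5 were called in none, namely Zc3h12d, Elavl1, Khsrp, Tia1 and Tial1. The share of all genes called in at least 1 library was not counted, so these 2 counts have no background beside them. The median log2 ratio of the 10 members was 0.26 at 30 min, 0.27 at 60 min and 0.55 at 120 min, beside 0.01, 0.01 and -0.02 over all genes with counts in both libraries. The background depends on the scale. With total counts, the median over all genes in the 45, 75, 90 and 120 min libraries was -0.18, -0.33, -0.26 and -0.22, and the share of called genes that were higher was 49.4%, 25.1%, 32% and 35.1% at these times in place of 71.6%, 57.9%, 56.7% and 53.3%. With total counts without Rn45s it was 65.3%, 42.7%, 41.2% and 34.5%.

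**Figure D1:**
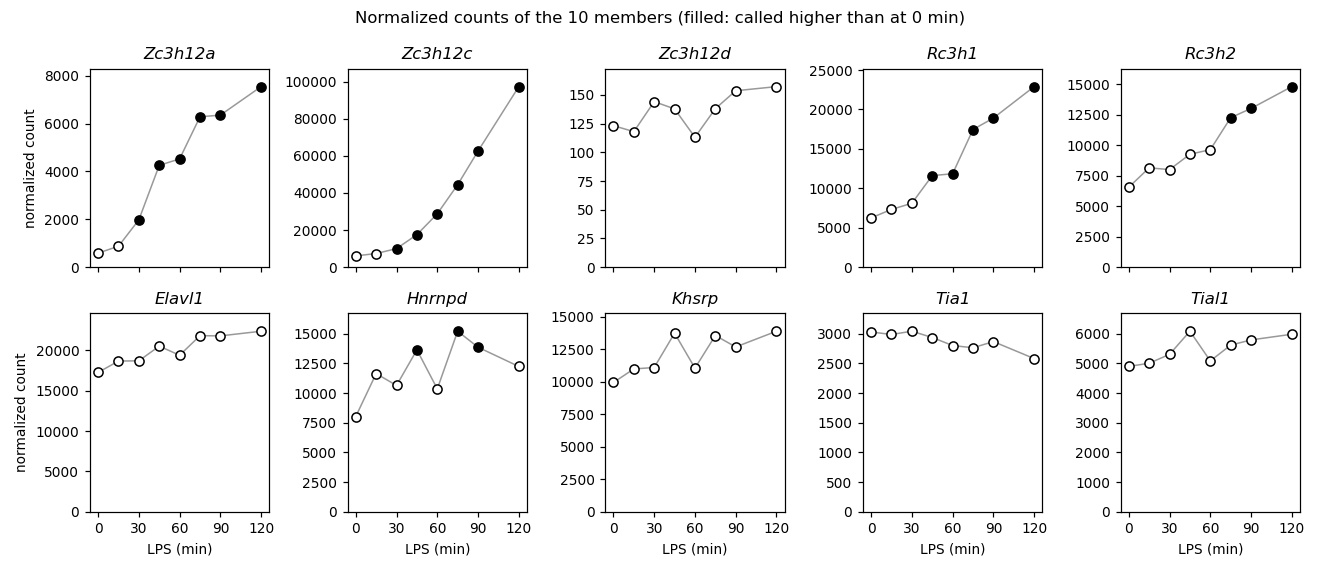
Normalized counts (vertical axis, from 0, one scale per panel) of the 10 members against minutes of LPS, 1 library per point; filled points are libraries called higher than 0 min. Zc3h12a, Zc3h12c, Rc3h1 and Rc3h2 are highest at 120 min, Hnrnpd is filled at 45, 75 and 90 min, and 5 panels have no filled point.

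Zc3h12a (chr4:125118414-125127881, minus strand) started from a low level and had the largest ratio to 0 min of the 10 members in each library up to 90 min. At 15 min its interval, 1.49 (1.35 to 1.65), overlapped that of Hnrnpd, 1.45 (1.41 to 1.49). At 90 min its interval, 10.84 (10.01 to 11.76), overlapped that of Zc3h12c, 10.31 (10.05 to 10.57). Its normalized count was 586, 875, 1977, 4254, 4523, 6282, 6352 and 7543 in order of time. Every LPS library was above the one at 0 min, and those from 30 min on were called. The ratio to 0 min was 3.37 (3.10 to 3.68) at 30 min, 7.72 (7.12 to 8.37) at 60 min and 12.9 (11.9 to 13.9) at 120 min. At 30 min the log2 ratio was 1.75 with an unadjusted p of 1.42e-06 and an adjusted p of 0.000427 (negative binomial test, Benjamini-Hochberg over all genes), and 55 of the 10493 genes that averaged 100 or more normalized counts had a larger ratio. The largest steps between neighbouring libraries came early, at 2.26-fold (2.09 to 2.44) from 15 to 30 min and 2.15-fold (2.04 to 2.27) from 30 to 45 min. Of the difference between 0 and 120 min, 52.7% was reached by 45 min and 81.9% by 75 min. The step from 75 to 90 min, 1.01-fold (0.971 to 1.05), was within counting error.

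Zc3h12c (chr9:52109569-52168730, minus strand), which encodes regnase-3, rose later and ended at a larger ratio. Its normalized count was 6069 without LPS and 7330, 9980, 17510, 28750, 44410, 62540 and 97250 from 15 to 120 min. Each library was above the one before it. The ratio to 0 min was 1.65 (1.60 to 1.69) at 30 min, 4.74 (4.62 to 4.86) at 60 min and 16.0 (15.7 to 16.4) at 120 min. The call at 30 min had a log2 ratio of 0.72 and an unadjusted p of 0.0402, and it was lost with total counts, with the edgeR dispersion trend, with the 4 libraries of low Rn45s share alone and with Benjamini-Hochberg adjustment. The calls from 45 min on held under each of these settings that included the library. At 120 min the log2 ratio was 4.0, with an unadjusted p of 1.93e-24 and an adjusted p of 6.85e-22 (negative binomial test, Benjamini-Hochberg), and 51 of 10493 genes had a larger ratio. Only 12.6% of the difference between 0 and 120 min was reached by 45 min and 42% by 75 min.

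Inside each library, where no scaling enters, the balance of these 2 regnase genes changed direction over the course. The level of Zc3h12c per length was 4.60 times (4.25 to 4.98) that of Zc3h12a at 0 min, 2.24 times (2.15 to 2.34) at 30 min and 1.83 times (1.76 to 1.89) at 45 min. It then returned to 2.82 times (2.74 to 2.91) at 60 min and 4.37 times (4.25 to 4.50) at 90 min and reached 5.72 times (5.61 to 5.85) at 120 min. Thus the ratio went down to 0.398 of its starting value by 45 min and ended at 1.25 times that value. The intervals of 0, 45 and 120 min do not overlap.

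Zc3h12d (chr10:7832323-7870397, plus strand), which encodes regnase-4, was low and was not called in any library. Its counts were 144, 124, 176, 122, 127, 98, 121 and 194 in the order of time, and its normalized count lay between 113 at 60 min and 157 at 120 min. Its ratio to 0 min at 120 min was 1.28 (1.02 to 1.59), with a log2 ratio of 0.35 and an unadjusted p of 0.409. With so few counts the interval of the ratio was wider, relative to the ratio, than for any other member. The miRNA gene Mir5104 overlaps Zc3h12d on the same strand.

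**Figure D2:**
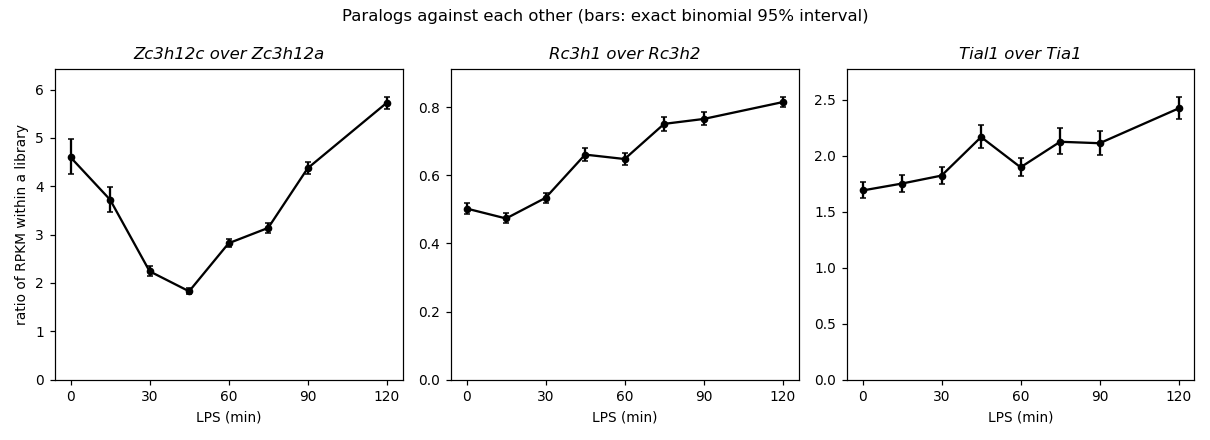
Ratio of RPKM between paralogs within each library (vertical axis, from 0) against minutes of LPS, with exact binomial 95% intervals. The ratio of Zc3h12c to Zc3h12a is lowest at 45 min (1.83) and highest at 120 min (5.72), that of Rc3h1 to Rc3h2 goes from 0.503 to 0.815, and that of Tial1 to Tia1 from 1.69 to 2.42.

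Both roquin genes were called higher, with smaller ratios than Zc3h12a and Zc3h12c. Rc3h1 (chr1:160906411-160974976, plus strand) had a normalized count of 6253, 7320, 8107, 11610, 11850, 17460, 18910 and 22900 in order of time. It was above the 0 min library throughout and was called from 45 min on. The ratio to 0 min was 1.89 (1.84 to 1.95) at 60 min and 3.66 (3.57 to 3.76) at 120 min, with a log2 ratio of 1.87, an unadjusted p of 1.90e-07 and an adjusted p of 9.23e-06 (negative binomial test, Benjamini-Hochberg). The calls at 45 and 60 min did not pass with Benjamini-Hochberg adjustment (adjusted p = 0.42 and 0.254) or with a log2 limit of 1, and the one at 45 min was also lost with total counts (log2 ratio 0.71) and kept with total counts without Rn45s (0.84).

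Rc3h2 (chr2:37368861-37424370, minus strand) had a normalized count of 6557 without LPS and 8149, 8002, 9263, 9637, 12260, 13020 and 14810 from 15 to 120 min. It was called at 75, 90 and 120 min. Its ratio to 0 min at 120 min was 2.26 (2.20 to 2.32), with a log2 ratio of 1.18, an unadjusted p of 0.000869 and an adjusted p of 0.0161 (negative binomial test, Benjamini-Hochberg). The 75 and 90 min libraries, where Rn45s took 20.5% and 15.8% of counts, gave ratios of 1.87 (1.81 to 1.93) and 1.99 (1.93 to 2.05), and both calls were lost with total counts as the scale, with Benjamini-Hochberg adjustment (adjusted p = 0.254 and 0.11) and with a log2 limit of 1. With total counts without Rn45s both were kept, at log2 ratios of 0.77 and 0.85. The call at 120 min held under every alternative tried. The small nucleolar RNA gene Snord90 lies within Rc3h2 on the same strand. Other members also overlap annotated genes that are not in the count table. On the same strand these are Gm37052, Gm37809 and Gm37653 for Rc3h1 and Gm44790 for Tia1. On the opposite strand they include Gm17949 for Khsrp, Mir6244 for Zc3h12c and Gm24726 for Zc3h12d.

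Within each library the balance of the roquin genes shifted toward Rc3h1. The level of Rc3h1 per length was 0.503 (0.487 to 0.519) of that of Rc3h2 at 0 min, 0.534 (0.519 to 0.549) at 30 min, 0.648 (0.632 to 0.665) at 60 min and 0.815 (0.800 to 0.830) at 120 min, a shift of 1.62-fold. Which gene was the higher depends on the transcript used for its length. With the matched transcripts Rc3h2 was the higher in all 8 libraries (10.1 against 5.09 RPKM at 0 min), and with the longest annotated transcript of 8948 bases Rc3h2 was at 6.54 RPKM against 5.07 for Rc3h1 at 0 min and at 12.8 against 16.1 at 120 min. The shift over time does not depend on this choice, since a gene's length is the same in each library.

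HuR, AUF1 and KSRP are the AU-rich element binders of the group. Elavl1 (chr8:4284781-4325140, minus strand) had a normalized count of 17270, 18680, 18710, 20530, 19400, 21830, 21800 and 22380 in order of time. The ratio to 0 min lay between 1.08 and 1.30 and no library was called, with a log2 ratio of 0.37 and an unadjusted p of 0.283 at 120 min. Ccl25 overlaps Elavl1 on the opposite strand, and whether the counting used the strand is not stated. Khsrp (chr17:57021049-57031507, minus strand) had a normalized count of 9938 without LPS and 10980, 11090, 13730, 11040, 13550, 12670 and 13880 from 15 to 120 min. It was not called either, with a log2 ratio of 0.48 and an unadjusted p of 0.167 at 120 min. For both genes the interval of the ratio at 120 min, 1.27 to 1.32 for Elavl1 and 1.36 to 1.43 for Khsrp, lay above 1, while the test, which also allows for spread between libraries, did not pass.

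Hnrnpd (chr5:99955935-99979130, minus strand) was the only one of the 5 members outside the regnase and roquin families to be called. Its normalized count was 8024, 11640, 10640, 13640, 10350, 15210, 13860 and 12240 in order of time. All 7 LPS libraries were above the one at 0 min, without an order in time. The log2 ratio was 0.54 to 0.92 in the 4 libraries with the higher Rn45s share, of which those at 45, 75 and 90 min were called (unadjusted p = 0.0304, 0.0106 and 0.027), and 0.37 to 0.61 in the other 3, of which none was called. None of the calls was left with total counts as the scale, with Benjamini-Hochberg adjustment or with a log2 limit of 1, and the part of the Rn45s share in them was not tested. Against Elavl1 in the same library, its level per length was 0.387 (0.378 to 0.397) at 0 min. At 15, 45, 75 and 90 min it was 0.519 (0.508 to 0.531), 0.554 (0.541 to 0.567), 0.581 (0.567 to 0.595) and 0.530 (0.517 to 0.543). At 30, 60 and 120 min it was 0.474 (0.464 to 0.484), 0.445 (0.435 to 0.455) and 0.456 (0.447 to 0.465). It thus went up and down between libraries and stayed above the 0 min value. Of its 6867 stretches of 58 bases, 99.4% were not found in another gene, and the antisense gene Gm17092 overlaps it on the opposite strand.

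TIA-1 and TIAR are translational silencers that also shape stress granules. Tia1 (chr6:86404203-86433405, plus strand) was the only member whose normalized count was lower at 120 min than at 0 min. Its values were 3030 without LPS and 2988, 3043, 2937, 2802, 2764, 2868 and 2582 from 15 to 120 min. The ratio at 120 min was 0.852 (0.812 to 0.894), with a log2 ratio of -0.23 and an unadjusted p of 0.512, so it was not called. Tial1 (chr7:128439772-128461726, minus strand) had a normalized count of 4896, 5004, 5302, 6082, 5081, 5614, 5789 and 5980 in order of time, and was not called, with a log2 ratio of 0.29 and an unadjusted p of 0.409 at 120 min. Within each library the level of Tial1 per length was 1.69 times (1.62 to 1.76) that of Tia1 at 0 min, 1.90 times (1.82 to 1.98) at 60 min and 2.42 times (2.32 to 2.53) at 120 min, and the intervals of these 3 libraries do not overlap. The rise was not steady, since the ratio was already 2.17 (2.07 to 2.27) at 45 min, above that at 60 min.

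**Figure D3:**
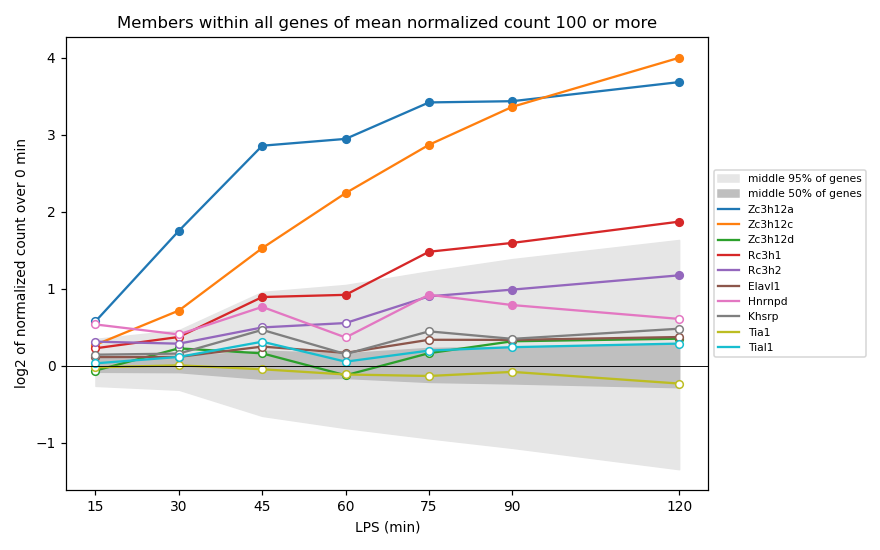
Log2 ratio of each member's normalized count to 0 min (vertical axis) against minutes of LPS, over grey bands that hold the middle 95% and 50% of the genes that averaged 100 or more normalized counts; filled points are called. At 120 min the bands' upper edges are at 1.63 and 0.29, with Zc3h12c at 4.0, Zc3h12a at 3.69 and Rc3h1 at 1.87 above both. Rc3h2, also called, lies between these edges at 1.18.

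The course was then split at 60 min to ask which members still moved in the second hour. From 30 to 60 min, 2 members were called higher (2.17% of all genes) and 0 lower (1.88%), namely Zc3h12a with a ratio of 2.29 (2.18 to 2.40) and Zc3h12c with 2.88 (2.82 to 2.94). From 60 to 120 min, 3 members were called higher (3.61%) and 0 lower (3.71%). Zc3h12c had a ratio of 3.38 (3.34 to 3.42) and a log2 ratio of 1.76, with an unadjusted p of 8.97e-07. Rc3h1 had a ratio of 1.93 (1.89 to 1.97) and an unadjusted p of 0.00679. Zc3h12a had a ratio of 1.67 (1.61 to 1.73) and an unadjusted p of 0.0359. With Benjamini-Hochberg adjustment or a log2 limit of 1, the call of Zc3h12c alone was left in the second hour. The call of Zc3h12a in the second hour was also lost with total counts, with total counts without Rn45s and with the scale and dispersion refitted on the 0, 30, 60 and 120 min libraries.

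Levels of different genes were compared per length, as RPKM, the reads per kb of unique 58-base positions scaled to the library total. This total includes Rn45s and is not the size factor used above, so changes of RPKM over time differ from the ratios above. For Elavl1 at 75 min the log2 ratio to 0 min was 0.34 with size factors and 0.0053 with total counts. At 0 min Elavl1 was at 27.1 RPKM (26.7 to 27.5), Khsrp at 22.6 (22.2 to 23.0), Hnrnpd at 10.5 (10.3 to 10.7), Rc3h2 at 10.1 (9.91 to 10.4), Tial1 at 9.94 (9.68 to 10.2), Zc3h12c at 8.91 (8.70 to 9.12), Tia1 at 5.88 (5.69 to 6.08), Rc3h1 at 5.09 (4.98 to 5.21), Zc3h12a at 1.94 (1.79 to 2.09) and Zc3h12d at 0.272 (0.230 to 0.321). The intervals of Hnrnpd and Rc3h2 overlap, as do those of Rc3h2 and Tial1, so these neighbours in the order were not told apart. The place of Rc3h2 rests on the transcript used, since with its longest transcript it was at 6.54 RPKM at 0 min, below Tial1 and Zc3h12c, and at 12.8 RPKM at 120 min, below Rc3h1 and Hnrnpd. At 120 min the order was led by Zc3h12c at 124 RPKM (123 to 125), followed by Elavl1 at 30.5 (30.2 to 30.9), Khsrp at 27.5 (27.0 to 27.9), Zc3h12a at 21.7 (21.2 to 22.1), Rc3h2 at 19.9 (19.6 to 20.2), Rc3h1 at 16.2 (16.0 to 16.4), Hnrnpd at 13.9 (13.7 to 14.1), Tial1 at 10.6 (10.3 to 10.8), Tia1 at 4.36 (4.21 to 4.51) and Zc3h12d at 0.302 (0.261 to 0.348). Zc3h12c passed Elavl1 between 45 and 60 min. Among the 3 regnase genes, Zc3h12a made up 17.4% of the summed RPKM at 0 min, 35.1% at 45 min and 14.8% at 120 min, and Zc3h12c 80.1%, 64.2% and 85%.

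**Figure D4:**
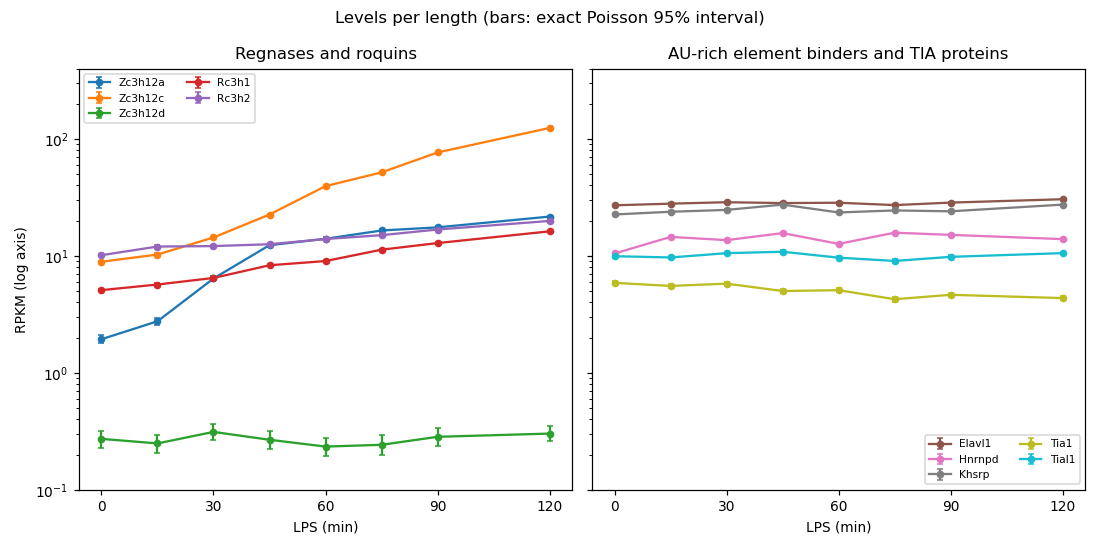
RPKM of each member (vertical log axis) against minutes of LPS, with exact Poisson 95% intervals; the left panel holds regnase and roquin genes and the right panel the other 5 members. Zc3h12c goes from 8.91 to 124 RPKM and Zc3h12a from 1.94 to 21.7, while Elavl1 stays between 27.1 and 30.5. RPKM is scaled to total counts, and with size factors Elavl1 at 120 min was at 1.30 times its 0 min value.

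The promoters of the members, 250 bases before to 50 after each start site, came from RefSeq (GRCm38) and were searched for the NF-kB consensus on both strands and for TGANTCA, the AP-1 consensus, which reads alike on both strands. The NF-kB consensus is held by 8.46% of the 32851 promoters and TGANTCA by 7.81%. Among the promoters of the 10 members, only 1 promoter of Zc3h12c held the first and only that of Rc3h1 the second. This is near the shares over all promoters, and the promoters of the called genes Zc3h12a, Rc3h2 and Hnrnpd held neither. The matches are shown as letters only, and a link to the calls was not tested. No match says only that these letters are not in this window. The start site of Zc3h12c used for its match lies inside the gene span given above, as does the stretch shown.
Zc3h12c, chr9:52168623-52168652, plus strand, 231 bases before the start site: cgggccgagcGGGACGCTCCcccatgccgc
Rc3h1, chr1:160906268-160906294, plus strand, 130 bases before the start site: ttggggccggTGACTCAgagctttcct

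Proteins that act with or on the regnases and roquins were taken from a list of 15 genes, of which 14 were tested at 60 and at 120 min and 4 were called higher and 0 lower at each, where 3.43% and 7.63% of all genes were higher and 2.36% and 6.7% lower. Its median log2 ratio was 0.22 at 60 min and 0.48 at 120 min. The largest ratio at 60 min belonged to Arid5a, which protects mRNAs such as Il6 from regnase-1, with normalized counts of 413 at 0 min, 4414 at 60 min and 1160 at 120 min, or 10.7 times (9.73 to 11.7) and then 2.81 times (2.53 to 3.12) the 0 min value. Ikbke, an IkB kinase relative, went from 1686 to 3708 and then 13690, or 2.20 times (2.08 to 2.32) and 8.12 times (7.75 to 8.51). The other called genes, which were chosen after their values were seen, were Malt1, a protease that cleaves regnase-1 and roquins, at 1.99 times (1.94 to 2.04) and 4.88 times (4.77 to 4.98), and Tank at 1.92 times (1.86 to 1.98) and 2.47 times (2.40 to 2.54). Zc3h12b, the remaining regnase gene, had 0 counts in all 8 libraries.

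Of 30 further genes for proteins that bind mRNA 3′ ends, 29 were in the table. At 60 min 28 were tested, and 2 were higher and 1 lower. At 120 min 29 were tested, and again 2 were higher and 1 lower. The median log2 ratio of the list was 0.21 at 60 min and 0.37 at 120 min. The background was 3.43% higher and 2.36% lower for 60 min and 7.63% and 6.7% for 120 min, so the list's 2 higher and 1 lower of 29 at 120 min were no larger a share than that background. Zfp36, which encodes tristetraprolin, was called higher at both times, at 6.92 times (6.68 to 7.16) and 5.00 times (4.83 to 5.18). The relative of Zfp36, Zfp36l2, was called lower at 60 and at 120 min, with normalized counts of 8824, 5189 and 2252, or 0.588 (0.569 to 0.607) and 0.255 (0.245 to 0.266) of the 0 min value. The other genes called, chosen after their values were seen, were Zfp36l1 at 60 min (1.68 times, 1.56 to 1.82) and Celf1 at 120 min (1.62 times, 1.58 to 1.66).

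Of 16 mRNAs known as targets of regnase-1 or the roquins, 7 were called higher at 30 min, 8 at 60 min and 9 at 120 min, of 13, 14 and 15 tested, and 0 lower at any of these times, where 1.14%, 3.43% and 7.63% of all genes were called higher. Their median log2 ratio was 1.90 at 30 min, 2.68 at 60 min and 3.78 at 120 min, over the 12 genes with counts in both libraries at each time. Il1b, the interleukin 1 beta gene, went from a normalized count of 38.5 at 0 min to 9961 at 60 min and 108100 at 120 min. Nfkbiz, which encodes the atypical IkB protein IkB zeta, went from 767 to 122100 and then 85680. Several of these genes are well-known targets of LPS, so their place in the list is not independent evidence of a direction.

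The genes whose course was most like that of each called member were named by Pearson's r of the log2 normalized count (plus 1) over the 8 libraries, among the 10494 genes that averaged 100 or more normalized counts. These r share the libraries and their depth and are given as a description. Zc3h12a was most like Kdm6b (0.998), Cdkn1a (0.995) and Mcl1 (0.994), Zc3h12c most like Nab1 (0.998), Cnot7 (0.998) and Slc15a3 (0.998), and Rc3h1 most like Lonrf1 (0.995), Lats1 (0.994) and Rel (0.994). Rc3h2 was most like Bdp1, Ppp4r2 and Eftud1 (0.996, 0.996 and 0.995), and Hnrnpd most like Cep128, Arnt and Cnot3 (0.994, 0.993 and 0.991). The size of change differs within these sets: Kdm6b, a histone demethylase gene, had a log2 ratio of 5.18 at 120 min beside 3.69 for Zc3h12a, and Cnot7, a deadenylase gene, 0.67 beside 4.0 for Zc3h12c. Among the members themselves, Zc3h12c and Rc3h1 had an r of 0.99 and the 2 roquin genes an r of 0.988. A high r was not particular to these pairs. Elavl1, which was not called, had an r of 0.971 with Rc3h1, 0.969 with Rc3h2 and 0.932 with Zc3h12c.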

How the data were processed

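RNA of 8 RAW264.7 cultures, 1 per time point, was sequenced. According to the study's methods, the authors aligned reads of 58 bases with Bowtie (up to 2 mismatches) to RefSeq transcripts (mm10), discarded reads that fit several genes and deposited raw counts per gene symbol. The submitters' processing notes name CASAVA 1.8.2 and DESeq 1.10.1. All 23143 genes were fitted at once in Python 3.11.15 (scipy 1.17.1): median-of-ratios size factors, a dispersion trend that treats all 8 libraries as replicates (0.0287 + 0.853/mean), and a negative binomial test conditional on the sum of both counts. The procedure was also run on simulated data with larger changes than many called here and less spread than was fitted. That run does not show how it performs for small ratios. The exact Poisson, exact binomial and exact conditional binomial intervals are 95%. Alternatives used edgeR 4.0.16 and DESeq2 1.42.0 (R 4.3.3). Transcripts were GENCODE vM21, matched by RefSeq accession for 22569 symbols. Named were the 10 members, from each list the 2 called genes with the largest absolute log2 ratio at 60 min, and per called member the 3 genes of highest r (mean normalized count at least 100). The members and lists were chosen with earlier results of these data known.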

Additional observations from a re-analysis of the deposited data

How the results depend on the processing

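The counts of members called lower were 0 under every alternative, and edgeR TMM factors, the DESeq2 dispersion trend and a filter at a mean normalized count of 10 kept all counts within 1.5 times. At 30 min, 1 member was called higher in place of 2 with total counts, total counts without Rn45s, the edgeR dispersion trend, the 0, 30, 60 and 120 min libraries only, Benjamini-Hochberg adjustment or a log2 limit of 1. Over all genes, 73 to 153 were called higher under these, in place of 176. With total counts, Benjamini-Hochberg adjustment or a log2 limit of 1, the members higher were 2 at 45 min, in place of 4, and 3 at 75 and at 90 min, in place of 5. The genes called higher over all genes also fell, in this order of settings. They were 298, 176 and 333 at 45 min in place of 581, and 357, 310 and 467 at 75 min in place of 729. At 90 min they were 472, 418 and 590 in place of 889. Benjamini-Hochberg adjustment left 1 of 2 from 30 to 60 min and 1 of 3 from 60 to 120 min, and a log2 limit of 1 also left 1 of 3 in the latter. Over all genes the adjustment left 122 of 336 and 207 of 567, and the limit 347 of 567. No log2 ratio changed sign where it was called. The 120 min calls of Zc3h12a, Zc3h12c, Rc3h1 and Rc3h2 held in each setting. Hnrnpd kept 1 call with total counts without Rn45s and gained the one at 120 min with the filter. Of the rpkm values at 0 min, those of Zc3h12c and Rc3h2 left their interval with the longest transcript. A pseudocount of 1 changed no call of a member. Spearman's rho was 0.976 to 1.0 for the genes named as most like a member, with up to 526 genes ranked above one of them (Mcl1). No paired analysis was possible because each time point has 1 library. Depth was lowest for Zc3h12d, with 98 to 194 counts a library.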
